A study of Ovis aries with 12 samples.

Results

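The genes of the cell skeleton described here were measured in the right ventricular free wall of lambs. They are ACTB (ENSOARG00000003021), GSN (ENSOARG00000005473), TUBA4A (ENSOARG00000020020) and CNN1 (ENSOARG00000018621). They were taken by name from the deposited count table, as 4 of its 27054 rows, and all 4 were among the 13065 genes that passed the filter on low counts. They were selected on measured values of these same libraries, among them the differences of ACTB and TUBA4A between control and fetal lambs and of GSN between shunt and control lambs. The group differences of the 4 genes are therefore a description and not a test of them, and the fitted changes, standard errors and calls printed for them are to be read in that way.

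The tissue had been snap frozen, and it was sequenced as stranded mRNA libraries, 4 in each of 3 groups of sheep. The fetal group came from unborn lambs. The control group came from lambs aged 4 to 6 weeks, and the shunt group came from lambs of the same ages that had been operated on as fetuses. In that operation a graft was placed between the aorta and the pulmonary artery, which gives a congenital left-to-right shunt and loads the right ventricle with pressure. The labels give no fetal age, sex, strain or sham operation, and they do not say that each library is a separate animal, so the spread between libraries may in part be technical.

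Actin filaments and microtubules are polymers that cells build and take apart to hold their shape, move and carry cargo. ACTB encodes the beta form of cytoplasmic actin, which non-muscle cells make in quantity and which heart muscle cells carry beside their sarcomeric actin. GSN encodes gelsolin, a calcium-activated protein that cuts and caps actin filaments. TUBA4A encodes an alpha-tubulin, a subunit of microtubules, and CNN1 encodes calponin, an actin-binding protein of smooth muscle that is also transiently made in the developing heart of mice.

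Total counts ranged from 19111348 to 44946875 per library. The 13 mitochondrially encoded protein genes held 26.7% to 41.2% of the counts in fetal and 43.5% to 50.0% in control libraries. In shunt 1 and shunt 2 they took 72.6% and 71.4%, against 54.6% in shunt 3 and 45.6% in shunt 4. Results on the shunt group for the 4 genes are therefore given with and without shunt 1 and shunt 2. Of the 24 heart muscle markers listed, MYL2, MYOZ2 and PYGM had a row under their symbol. CPM stands here for counts relative to library size after TMM scaling, the measure used for the 4 genes below. The summed level of these markers was 11571 to 18067 CPM in the fetal group and 10052 to 15707 CPM in the controls. In the shunt group that sum was 10947 to 17965 CPM. MYL2, the regulatory light chain of ventricular myosin, made up most of that sum. In RefSeq's table of the sheep assembly ARS-UI_Ramb_v3.0 each of the 4 symbols stands once and 0 other genes overlap them. The labels and file headers name no genome build, so that table may not be the annotation on which the reads were counted. Actins and alpha-tubulins have near-identical relatives, and the labels and file headers do not tell how reads shared among them were assigned, so the levels of ACTB and TUBA4A are uncertain. In tissue, fewer cells of a type and less RNA per cell cannot be told apart.

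ACTB was highest in the fetal ventricle and lowest in the control ventricle, with the shunt libraries spread between. Levels are given as CPM after TMM scaling, which sets libraries level on the bulk of their genes. The fetal libraries, in the order 1 to 4, had 393, 334, 327 and 165 CPM. The control libraries had 91.3, 138, 153 and 95.7 CPM. Every fetal library stood above every control library, but fetal 4, with 165 CPM, was close to the highest control. The shunt libraries had 115, 138, 305 and 229 CPM, so that shunt 1 and shunt 2 lay inside the control range and shunt 3 and shunt 4 above it.

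Group means of ACTB were 305 ± 97.8 CPM in fetal libraries, 119 ± 30.5 CPM in controls and 197 ± 87.4 CPM in shunt libraries (SD, n = 4 each). The fitted log2 change of control against fetal was -1.35 (SE 0.329), a 2.55-fold lower level, and lay past the threshold of an adjusted p under 0.05 by edgeR (adjusted p = 0.0293). It was no longer past it without fetal 1, fetal 2 or fetal 3 (edgeR adjusted p = 0.0985, 0.0802 and 0.0628) or without control 1, control 2 or control 4 (edgeR adjusted p = 0.0959, 0.0605 and 0.104). Shunt against control stood at 0.72 (SE 0.325), and at 1.14 (SE 0.293) without shunt 1 and shunt 2. Shunt against fetal stood at -0.63 (SE 0.324), and at -0.20 (SE 0.304) without those libraries. Neither shunt difference passed (edgeR adjusted p = 0.162 and 0.191). With library totals, where the median of all genes shifts by -1.02, shunt against fetal was -1.56 and passed (edgeR adjusted p = 0.00924).

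GSN was highest in the control ventricle. The control libraries had 577, 399, 465 and 629 CPM. The fetal libraries had 142, 195, 199 and 225 CPM, and the shunt libraries had 199.5, 140.1, 159 and 348 CPM. Every control library stood above every fetal and every shunt library, while fetal and shunt libraries overlapped. Shunt 4, with 348 CPM and the lowest mitochondrial share of its group, was the shunt library nearest to the controls.

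Means of GSN were 190.3 ± 35.1 CPM in fetal libraries, 518 ± 104 CPM in controls and 212 ± 94.2 CPM in shunt libraries (SD, n = 4 each). Gelsolin was 2.72-fold higher in control than in fetal libraries (log2 1.44, SE 0.278) and 2.44-fold lower in shunt than in control libraries (log2 -1.29, SE 0.277). Both lay past the threshold, the first at an edgeR adjusted p of 0.0095 and the second at 0.0374. Scaled by library totals the first was 1.05 and did not pass (edgeR adjusted p = 0.124). The second was lost without control 1, control 2 or control 4 (edgeR adjusted p = 0.0867, 0.104 and 0.127) and without shunt 1 or shunt 2 (edgeR adjusted p = 0.0678 and 0.0772). It was lost too in a fit of the shunt and control groups alone (edgeR adjusted p = 0.117). With both of those shunt libraries left out it was -1.04 (SE 0.309, edgeR adjusted p = 0.139). Shunt against fetal stood at 0.15 (SE 0.273, edgeR adjusted p = 0.727), and at -0.73 with library totals.

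TUBA4A was lowest in the fetal ventricle, and its highest mean was that of the shunt ventricle. The fetal libraries had 27.7, 59.5, 43.7 and 70.3 CPM. The control libraries had 99.2, 165, 252 and 171 CPM, and the shunt libraries had 184, 436, 349 and 212 CPM. All fetal libraries lay below all others, and the control and shunt ranges overlapped between 184 and 252 CPM. The high shunt libraries were shunt 2 and shunt 3, which is not the division seen for ACTB.

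Means of TUBA4A were 50.3 ± 18.6 CPM in fetal libraries, 172 ± 62.6 CPM in controls and 295 ± 118 CPM in shunt libraries (SD, n = 4 each). The alpha-tubulin was 3.42-fold higher in control than in fetal (log2 1.77, SE 0.354, edgeR adjusted p = 0.0111) and 5.87-fold higher in shunt than in fetal libraries (log2 2.55, SE 0.364, edgeR adjusted p = 0.00114). Over the alternatives tried these stayed past the threshold, at log2 changes of 1.34 to 2.00 and 1.46 to 2.77. Shunt against control stood at 0.78 (SE 0.345) and did not pass in any of them, with a lowest value of 0.12 under library totals. Without shunt 1 and shunt 2 it was 0.68 (SE 0.396), and shunt against fetal was 2.46 (SE 0.391, edgeR adjusted p = 0.00525).

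CNN1 had the fewest counts of the 4 genes and the widest spread, and was highest in the fetal ventricle. The fetal libraries had 21.4, 26.3, 17.2 and 33.7 CPM. The control libraries had 12.3, 3.17, 4.28 and 9.93 CPM, and the shunt libraries had 3.55, 1.32, 16.2 and 14.8 CPM. All fetal libraries stood above all others, and the shunt libraries formed a low pair, shunt 1 and shunt 2, and a high pair, shunt 3 and shunt 4, the second of which lay above every control. Shunt 2 rested on 15 counts, with an exact 95% Poisson interval of 8.40 to 24.7 counts that covers counting error only, and the fetal libraries on 392 to 1151.

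Means of CNN1 were 24.6 ± 7.09 CPM in fetal libraries, 7.43 ± 4.42 CPM in controls and 8.95 ± 7.60 CPM in shunt libraries (SD, n = 4 each). Its coefficient of variation was 28.8% in fetal libraries, 59.4% in controls and 84.9% in shunt libraries. The biological coefficient of variation that edgeR fitted was 60.4% for CNN1, against 33.1% for ACTB, 28.5% for GSN, 35.0% for TUBA4A and a median of 29.3% over all genes tested. Control against fetal stood at a log2 change of -1.72 (SE 0.628) and did not pass (edgeR adjusted p = 0.149). Without shunt 1 and shunt 2, which enter the shared estimate of spread, it was -1.71 (SE 0.401) and passed (edgeR adjusted p = 0.021), and it passed too in a fit of the control and fetal groups alone (edgeR adjusted p = 0.0284). Shunt against fetal stood at -1.43 (SE 0.625, edgeR adjusted p = 0.131), at -0.69 without shunt 1 and shunt 2, and at -2.24 with library totals, where it passed (edgeR adjusted p = 0.0197). Shunt against control stood at 0.29 (SE 0.618), at 1.02 without those libraries and at -0.12 with library totals. Its sign also turned without shunt 3 and without shunt 4, at -0.15 and -0.04.

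**Figure D1:**
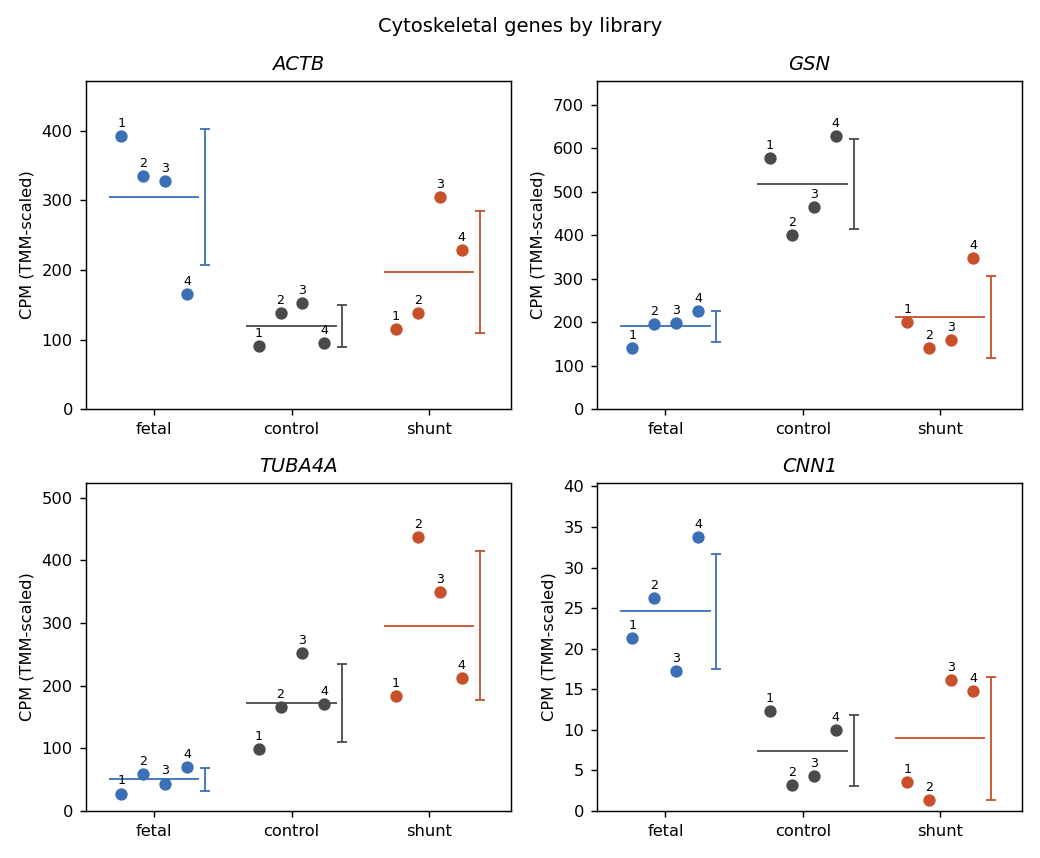
Level of ACTB, GSN, TUBA4A and CNN1 in each library, in TMM-scaled CPM on a linear axis from 0. Points are libraries with their replicate number, horizontal lines are group means and bars are the SD (n = 4). The control libraries stand apart for GSN, at 399 to 629 CPM, and the fetal libraries stand apart for TUBA4A, at 27.7 to 70.3 CPM, and for CNN1, at 17.2 to 33.7 CPM.

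ACTB and CNN1 had the same order of group means, and GSN and TUBA4A each had another. For ACTB it ran fetal, shunt, control, and of the neighbours shunt overlapped both other groups. For GSN control came first, and the neighbours shunt and fetal did not differ beyond their spread. For TUBA4A it ran shunt, control, fetal, and the neighbours shunt and control overlapped. For CNN1 it ran fetal, shunt, control as well, and shunt and control overlapped throughout the control range.

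Between control and fetal libraries 3 of the 4 genes were called, GSN and TUBA4A higher and ACTB lower, where 5.17% of all genes tested were called (2.66% higher and 2.50% lower). The libraries of these groups did not overlap for any of the 4 genes, against 19.3% of all genes. Between shunt and control libraries 1 of the 4, GSN, was called lower, where 4.00% of all genes were called (2.30% higher and 1.69% lower) and 12.1% did not overlap. Between shunt and fetal libraries 1 of the 4, TUBA4A, was called higher, where 15.7% of all genes were called (9.16% higher and 6.51% lower), and TUBA4A and CNN1 did not overlap, against 19.0% of all genes. As the genes were chosen with these differences known, nothing is read from the counts. The comparisons share groups, so their values are not independent of each other.

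**Figure D2:**
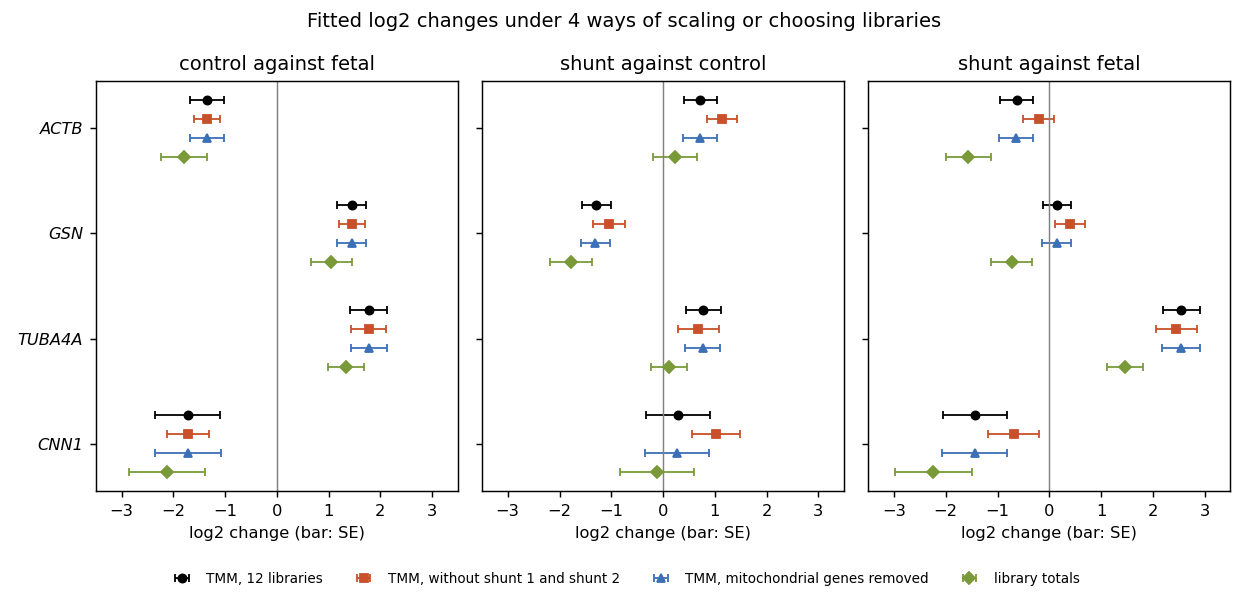
Fitted log2 change of each gene in the 3 comparisons, with its standard error as a bar, for 4 settings given by colour and marker. Changes of control against fetal keep their side of 0 in all 4 settings. In the shunt comparisons GSN against fetal runs from 0.41 without shunt 1 and shunt 2 to -0.73 with library totals, and CNN1 against control from 1.02 to -0.12.

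Shunt 1 and shunt 2 stood apart from shunt 3 and shunt 4 in ACTB and CNN1, though not in the other genes. ACTB had 115 and 138 CPM in the first pair and 305 and 229 CPM in the second, and CNN1 had 3.55 and 1.32 CPM against 16.2 and 14.8 CPM. For TUBA4A the pairs interleaved, with 184 and 436 against 349 and 212 CPM. For GSN they interleaved as well, with 199.5 and 140.1 against 159 and 348 CPM. The first pair also kept the fewest counts outside the mitochondrial genes, 7152139 and 7140136 against 10702663 to 24976602 in the other libraries. The part of the mitochondrial share in these results was not tested beyond leaving those libraries out and removing the mitochondrially encoded genes before scaling. That removal moved shunt against control by little, to 0.71 for ACTB, -1.31 for GSN, 0.76 for TUBA4A and 0.27 for CNN1.

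**Figure D3:**
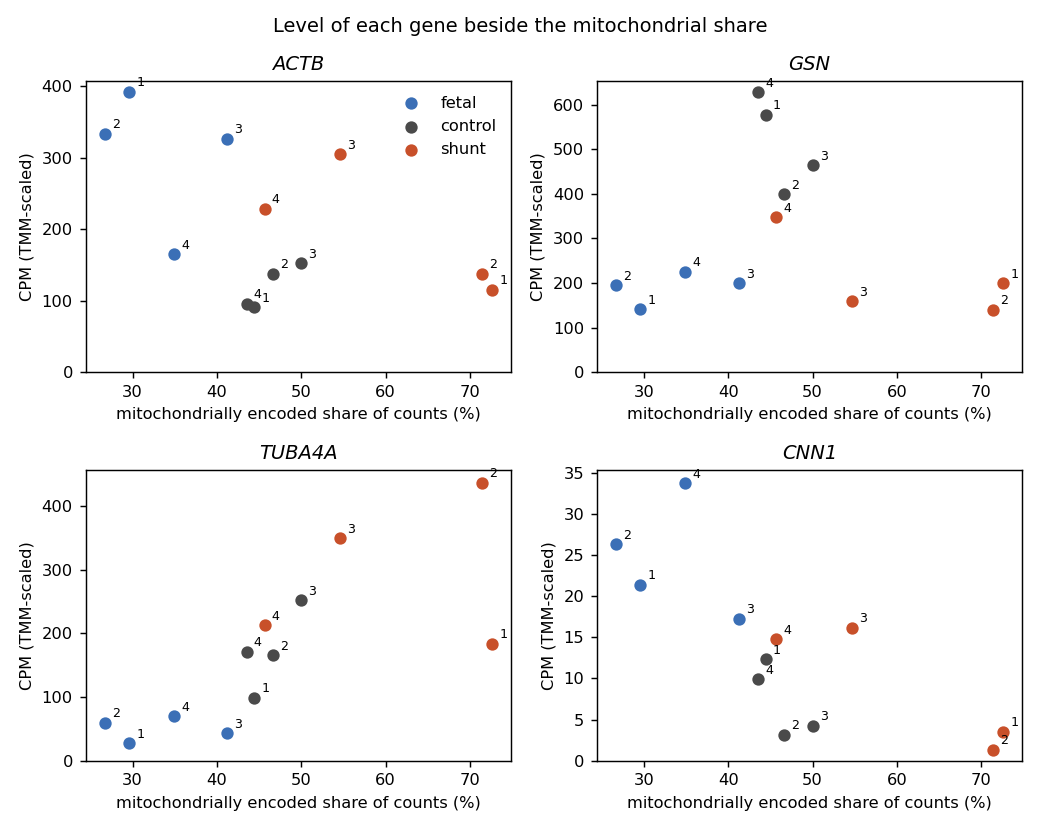
Level of each gene in TMM-scaled CPM (vertical axis, linear) beside the share of counts from the 13 mitochondrial genes in % (horizontal axis), 1 point per library with its replicate number. Shunt 1 and shunt 2 lie at 72.6% and 71.4%, low in ACTB and CNN1, and shunt 2 has the highest TUBA4A level of the 12 libraries, 436 CPM.

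Ratios of raw counts within a library need no scaling between libraries, and they compare libraries, not the levels of different genes. The count of ACTB per count of GSN was 0.731 to 2.77 in fetal libraries, 0.152 to 0.345 in controls and 0.577 to 1.92 in shunt libraries. Control libraries thus lay below all others, and fetal and shunt libraries overlapped. The ratio of GSN to TUBA4A was 3.20 to 5.10 in fetal and 1.84 to 5.82 in control libraries, and 0.321 to 1.64 in shunt libraries. For this pair the shunt libraries lay below all others, shunt 4 with 1.64 being nearest to the controls.

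The ratio of TUBA4A to CNN1 was 1.30 to 2.54 in fetal libraries, 8.04 to 59.0 in controls and 14.4 to 330 in shunt libraries. The ratio of ACTB to TUBA4A was 2.34 to 14.2 in fetal libraries, 0.559 to 0.920 in controls and 0.316 to 1.08 in shunt libraries. In both of these the fetal libraries stood apart, while control and shunt libraries overlapped. The ratio of GSN to CNN1 was 6.63 to 11.6 in fetal libraries, 46.8 to 126 in controls and 9.84 to 106 in shunt libraries, so only fetal and control libraries were separated. The ratio of ACTB to CNN1 overlapped among all groups, at 4.89 to 19.0 in fetal libraries, 7.39 to 43.4 in controls and 15.5 to 104 in shunt libraries.

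**Figure D4:**
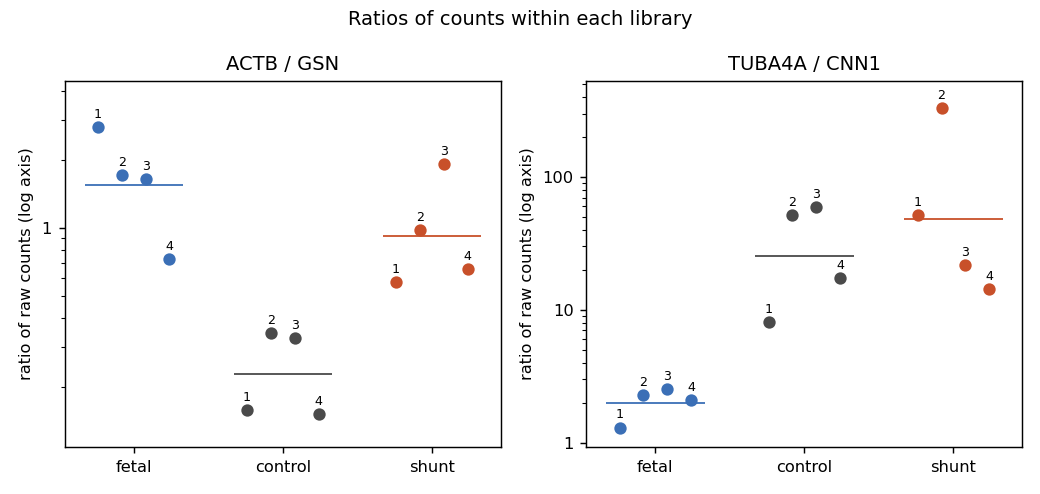
Ratio of raw counts of ACTB to GSN (left) and of TUBA4A to CNN1 (right) in each library, on log axes. Points are libraries with their replicate number and lines are means on the log scale. Control libraries lie lowest for ACTB to GSN, at 0.152 to 0.345, and fetal libraries lie lowest for TUBA4A to CNN1, at 1.30 to 2.54.

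Across the 12 libraries the 4 genes did not vary together as a set. Pearson's r of log2 CPM was -0.66 for ACTB and GSN, -0.68 for TUBA4A and CNN1, -0.47 for ACTB and TUBA4A and 0.55 for ACTB and CNN1. For deviations from the group means, r was -0.21, -0.25, -0.01 and 0.24 for the same pairs, so these relations lay mostly between groups. GSN and CNN1 were the other way round, with r of -0.08 over the 12 libraries and 0.61 within groups. These are descriptions over libraries that share groups and scaling, and no test was made.

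Among the 478 other tested genes with a symbol, the profile most like that of ACTB was that of CCN2, a secreted matrix protein (r = 0.89 over 12 libraries, and 0.74 within groups). Also among the 3 nearest was NPAS4 (0.88 and 0.73), a transcription factor with 7 counts in all controls together. Nearest to GSN were ALDH1A1, an enzyme that makes retinoic acid (0.87 and 0.54), PYGM, muscle glycogen phosphorylase (0.86 and 0.69), and FURIN, a protease (0.85 and 0.42). Among the 3 nearest to TUBA4A were CRYAB, a small heat shock protein that binds desmin filaments (0.92 and 0.67), and FABP5, a fatty acid carrier (0.87 and 0.07). Nearest to CNN1 were ILK, a kinase-like protein of cell adhesions (0.87 and 0.85), IGFBP5, which binds insulin-like growth factors (0.87 and 0.83), and BLOC1S4 (0.84 and 0.84).

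Other genes of the cytoskeleton and targets of SRF were followed through lists of 294 symbols. SRF is the serum response factor, through which actin genes are switched on. The other lists covered actins, filament turnover, actin binding and adhesion, microtubules and intermediate filaments. Only 18 of the 294 had a row under their symbol. Besides the 4 genes 14 were tested, with 0 other actins, tubulins or calponins named among them. Of these 14, between control and fetal libraries, 1 was called lower and 0 higher, where 5.17% of all genes were called, and the median log2 change was -0.42 against -0.00 for all genes. Between shunt and control libraries 1 was called higher and 0 lower, where 4.00% of all genes were called (median 0.37 against 0.01). Between shunt and fetal libraries 1 was called higher and 0 lower, where 15.7% of all genes were called (median -0.10 against -0.01). The lists differed in their medians. For control against fetal the 7 SRF targets among the 14 were at -2.21, and the 5 genes of actin binding and adhesion at -0.10. CFL1, DYNLT3 and CRYAB, each the only one of the 14 on its list, were at -0.50, 0.37 and 0.63. For shunt against control the values were 1.64, -0.17, 0.26, -0.62 and 0.64 in that order. The 1.64 is the change of CCN2, the middle one of the 7 SRF targets, of which 0 were called in that comparison. At an unadjusted edgeR p under 0.05 there were 6, 6 and 3 of the 14, where 18.4%, 28.0% and 32.8% of all genes reached it. The lists were chosen with earlier results of these data known, so nothing is read from these counts and medians.

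The gene called lower in control than in fetal libraries was CCN2, a target of SRF and of the Hippo pathway. It went from 27.2, 45.3, 41.9 and 8.99 CPM in the fetal to 2.26, 1.24, 2.54 and 3.83 CPM in the control libraries (log2 -3.63, SE 0.707, edgeR adjusted p = 0.0122). The groups did not overlap, and fetal 4, the lowest fetal library for ACTB, was the lowest for CCN2 too. In shunt 1 to shunt 4 it stood at 1.64, 3.43, 18.6 and 6.67 CPM, again with the first pair low. Cofilin, CFL1, which severs actin filaments as gelsolin does, was at -0.50 (SE 0.185, edgeR adjusted p = 0.147) between control and fetal, without overlap and without a call. It was called in a fit of those groups alone and without shunt 1 and shunt 2 (edgeR adjusted p = 0.0213 and 0.0248).

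The gene called higher in shunt than in control libraries was TES, testin, a protein of focal adhesions and stress fibres. It had 5.54, 5.28, 6.70 and 4.30 CPM in the control and 10.1, 10.3, 17.4 and 6.56 CPM in the shunt libraries (log2 1.03, SE 0.259, edgeR adjusted p = 0.0457). Shunt 4 lay within the control range and the other shunt libraries above it. The call was lost with library totals (log2 0.40), without shunt 1 and shunt 2 (log2 1.11, edgeR adjusted p = 0.101), and without control 1, control 2, control 4, shunt 1 or shunt 2 alone (edgeR adjusted p = 0.107, 0.122, 0.147, 0.0731 and 0.0928). The replicate block (log2 0.98, edgeR adjusted p = 0.0685) and the fit of those groups alone (log2 1.02, edgeR adjusted p = 0.129) ended it as well. Between control and fetal TES stood at -0.92 (SE 0.257, edgeR adjusted p = 0.0517). That change was past the threshold with RLE factors, library totals, the fit of those groups alone, the replicate block and without shunt 1 and shunt 2 (edgeR adjusted p = 0.0487, 0.0254, 0.00372, 0.0464 and 0.0279), and with DESeq2 (adjusted p = 0.0122).

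The gene called higher in shunt than in fetal libraries was CRYAB, the alpha B-crystallin chaperone of the desmin and actin filaments of heart muscle. Its levels were 664, 675, 917 and 831 CPM in the fetal and 1357, 2082, 2357 and 1653 CPM in the shunt libraries, without overlap (log2 1.27, SE 0.216, edgeR adjusted p = 0.00278). With library totals it was 0.27 and did not pass (edgeR adjusted p = 0.358), and without shunt 1 and shunt 2 it was 1.36 (SE 0.194). The control mean lay between, with libraries at 1083 to 1452 CPM that overlapped the shunt range, and neither control against fetal nor shunt against control passed (log2 0.63 and 0.64, edgeR adjusted p = 0.108 and 0.0819). Both passed with DESeq2 (adjusted p = 0.0255 and 0.0197), and the first passed in a fit of those groups alone and without shunt 1 and shunt 2 (edgeR adjusted p = 0.0152 and 0.0223). TUBA4A had the same order of group means, fetal, control, shunt.

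Of the adhesion genes, ILK had a log2 change against fetal of -0.35 in control and -0.61 in shunt libraries, without a call (edgeR adjusted p = 0.379 and 0.0506), with 60.8 and 52.6 CPM in shunt 1 and shunt 2 and 101 and 93.8 CPM in shunt 3 and shunt 4. Against fetal the shunt value was past the threshold with RLE factors, TMM without mitochondrial genes, library totals and the replicate block (edgeR adjusted p = 0.049, 0.0479, 0.00384 and 0.0495), with DESeq2 (adjusted p = 0.0184), and without shunt 3 or shunt 4 (edgeR adjusted p = 0.0184 and 0.0267). Without shunt 1 and shunt 2 it was -0.29 (SE 0.131, edgeR adjusted p = 0.185). For control against fetal, ILK was called in a fit of those groups alone (edgeR adjusted p = 0.0468). Without shunt 1 and shunt 2 that change stayed short of a call (edgeR adjusted p = 0.0511). The integrin gene ITGAV was at 0.22 (control against fetal) and 0.10 (shunt against control), with signs that turn under library totals. DYNLT3, a light chain of the microtubule motor dynein, was at 0.37 and -0.62 in the same comparisons, the first turning sign under library totals, and was not called (edgeR adjusted p = 0.372 and 0.0876). The second was called with library totals (edgeR adjusted p = 0.0405) and with DESeq2 (adjusted p = 0.0498). FHL1, a LIM protein of the sarcomere, was at 0.65 and -0.60 in them, also uncalled (edgeR adjusted p = 0.108 and 0.0977), directions that GSN also had. The first was called in a fit of those groups alone and without shunt 1 and shunt 2 (edgeR adjusted p = 0.00844 and 0.00869), and the second without shunt 3 (edgeR adjusted p = 0.0332). NPPA, which SRF also controls, was at -3.15 (SE 1.68) and 5.76 (SE 1.90) with no call (edgeR adjusted p = 0.355 and 0.0895). The second was 2.06 without shunt 3, and 6.17 and past the threshold without shunt 4 (edgeR adjusted p = 0.0447).

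**Figure D5:**
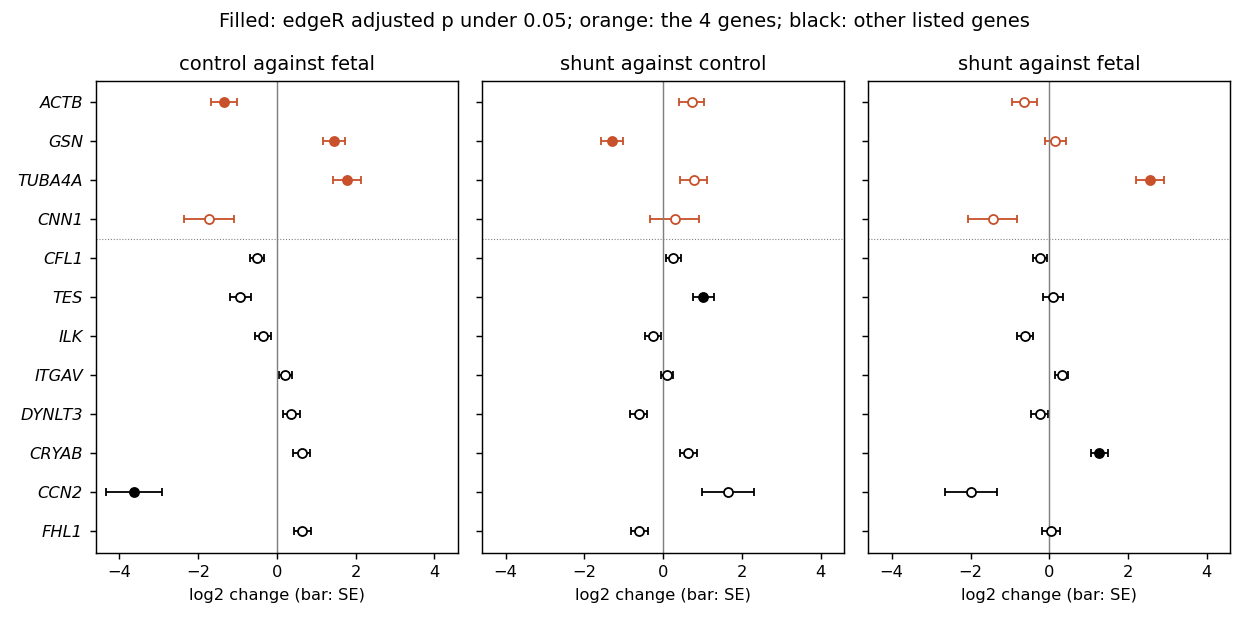
Log2 change with its standard error for the 4 genes (orange) and for 8 other listed genes (black), in the 3 comparisons. The black genes come from the lists of cytoskeleton genes and of SRF targets, and CCN2 is there as an SRF target. NPPA, also a listed gene, is not drawn, with a log2 change of 5.76 (SE 1.90) for shunt against control and no call. Filled points have an edgeR adjusted p under 0.05. Among the black points these are CCN2 at -3.63 for control against fetal, TES at 1.03 for shunt against control and CRYAB at 1.27 for shunt against fetal.

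Markers of other cell types were read beside these genes, and their part in the results was not tested. Of 16 smooth muscle and pericyte markers CNN1 and RGS4 alone had a row, and RGS4 was low, at 0.879 to 1.82 CPM in fetal libraries, 0.373 to 0.597 CPM in controls and 0.176 to 1.09 CPM in shunt libraries. Like CNN1 and 19.3% of all genes it did not overlap between fetal and control libraries, and it was not called (log2 -1.30, SE 0.535, edgeR adjusted p = 0.202). In shunt 1 to shunt 4 RGS4 stood at 1.09, 0.176, 0.213 and 0.899 CPM, which is not the division seen for CNN1. Its shunt and fetal libraries overlapped, where those of CNN1 did not. RGS4 had 2 counts in shunt 2 and at most 56 in any library. GSN is itself on the fibroblast list of 13, beside DCN and FGF7, whose summed level was 436 to 554 CPM in fetal libraries, 401 to 476 CPM in controls and 257 to 541 CPM in shunt libraries. FGF7 was lower in shunt than in control libraries (log2 -1.28, SE 0.238, edgeR adjusted p = 0.0336), as was PYGM of the heart muscle list (log2 -0.96, SE 0.244, edgeR adjusted p = 0.0462). The other heart muscle markers, MYL2 and MYOZ2, were at 0.33 and 0.07 in that comparison, with no call. Without shunt 1 and shunt 2 neither FGF7 nor PYGM was called (log2 -1.21 and -0.60, edgeR adjusted p = 0.0928 and 0.183). Nor was either called without control 1, control 2, control 4, shunt 1 or shunt 2 alone (edgeR adjusted p up to 0.12 and 0.141). A fit of the shunt and control groups alone called neither FGF7 nor PYGM (edgeR adjusted p = 0.117 and 0.129). PYGM was not called without control 3, with library totals or with the replicate block either (edgeR adjusted p = 0.0545, 0.0502 and 0.0667). DCN was called in 0 of the 3 comparisons.

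Of 14 endothelial markers KDR and AQP1 had a row, with sums of 107 to 118 CPM in fetal libraries, 61.4 to 84.8 CPM in controls and 52.5 to 134 CPM in shunt libraries. Of 14 myeloid markers 4 had one, with 5.58 to 13.8, 14.6 to 26.9 and 10.03 to 24.4 CPM in the same order. Between fetal and control libraries KDR did not overlap and AQP1 did, with no call (edgeR adjusted p = 0.0641 and 0.81). The highest endothelial sum held 62.2 CPM of AQP1, in shunt 4. MRC1 made up most of the myeloid sum. It did not overlap between fetal and control libraries, while CD14 and ITGAM did, with no call (edgeR adjusted p = 0.0735, 0.274 and 0.796). Of 14 lymphocyte markers 4 had one, with sums of at most 2.90 CPM in any library. Of 9 fat cell markers 4 had one, with 1.79 to 4.35 CPM in fetal libraries, 3.72 to 18.2 CPM in controls and 5.28 to 115 CPM in shunt libraries. None of the markers with a row was at 0 in all libraries. Of the 3 lymphocyte markers tested, GNLY was called higher in control and in shunt than in fetal lambs (edgeR adjusted p = 0.0417 and 0.0286), on 0 to 4 counts in fetal libraries and 0 in shunt 2, and CD3E and CD4 had changes below 0 with no call (log2 -0.25 and -0.42 for control, -0.13 and -0.49 for shunt). Of the 3 fat cell markers tested, LIPE was called lower in shunt than in control libraries (log2 -1.90, edgeR adjusted p = 0.0487), while FABP4 and ADIPOQ were at 3.99 and 0.87 with no call. FABP4 was called higher in shunt than in fetal libraries (log2 7.86, edgeR adjusted p = 0.00816), where LIPE was at -0.82 and ADIPOQ at 0.90. These marker calls were not recomputed without shunt 1 and shunt 2. The list of 8 red blood cell markers had 0 rows under its symbols.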

How the data were processed

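RNA of right ventricular free wall was made into stranded mRNA libraries and read as pairs of 75 bases, per the labels' protocols. The deposited values are raw counts in 1 table of genes by libraries, headed as total counts per the file headers, with 12 columns matched to samples by library name and 0 columns unused. No aligner, counting program, genome build or use of strand was stated in the labels or headers. Names came from the table, and 0 of its Ensembl identifiers matched RefSeq's table.

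Genes were filtered with filterByExpr and scaled by TMM in edgeR 4.0.16 (R 4.3.3), and 1 quasi-likelihood model with 3 groups was fitted to all libraries (glmQLFit, robust, and glmQLFTest). The call threshold was 0.05 for p adjusted by Benjamini-Hochberg over 13065 genes. Standard errors were obtained by dividing the absolute log2 change by the root of F. Log2 CPM used a prior count of 2. The genes and lists were chosen with earlier results of these data known. Named were the 4 genes, listed genes called in any comparison, up to 4 genes per list with the smallest p, and the 3 genes most like each of the 4, of which some are not reported here. RGS4, FGF7 and DCN are named as markers. Alternatives were RLE factors, library totals, TMM without mitochondrial genes, the Wald test of DESeq2 1.42.0, no filter, fits of the groups compared alone, a replicate block and leaving libraries out. The code was tested on simulated data. Within each group no library repeated another, since the smallest chi-square per gene was 23.8. Pairs across groups were not compared in this way.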

Additional observations from a re-analysis of the deposited data

Results flagged for a closer look

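In 45 groups of 4 libraries, 1 library stood far from the other 3 by Dixon's criterion in 4, and chance alone gives about 1 in 20. CRYAB was at 1452 CPM in control 3, with the next control at 1137 CPM. FHL1 was at 27.7 CPM in fetal 4, with the next at 24.3 CPM. NPPA was at 373 CPM in fetal 2, with the next at 99.3 CPM, and at 3589 CPM in shunt 3, with the next at 142 CPM. ACTB, GSN, TUBA4A and CNN1 gave 0 such libraries in the 3 groups.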

How the results depend on the processing

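Genes called between control and fetal libraries numbered 675, and 1248 with DESeq2, 1913 with only the groups compared, 1672 without shunt 1 and shunt 2, and 259 to 530 with 1 library left out. Between shunt and control there were 522, and 1981, 4, 64 and 6 to 2169 under the same settings and 61 with the replicate block. Between shunt and fetal there were 2048, and 7933 with library totals, 1073 with only those groups, 1314 without shunt 1 and shunt 2, and 957 to 2855 with 1 library left out. With library totals the calls divided into 99 higher and 706 lower (348 and 327 in the main analysis), 13 and 582 (301 and 221), and 137 and 7796 (1197 and 851), and the median of all genes shifted by -0.41, -0.61 and -1.02.

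Log2 changes that turned sign with library totals were, for control against fetal, ITGAV at -0.19 and DYNLT3 at -0.026. For shunt against control they were CNN1 at -0.12, CFL1 at -0.26 and ITGAV at -0.55. For shunt against fetal they were GSN at -0.73, TES at -0.96, ITGAV at -0.75 and FHL1 at -0.91. Without shunt 1 and shunt 2, shunt against control turned for ILK (0.051) and ITGAV (-0.14), and shunt against fetal for PYGM (0.11). With 1 library left out, shunt against control ran from -0.15 to 0.63 for CNN1 and from -0.0091 to 0.20 for ITGAV. Shunt against fetal ran from -0.20 to 0.30 for GSN, -0.21 to 0.29 for TES, -0.14 to 0.22 for FHL1 and -1.09 to 3.49 for NPPA. The cause was not tested.

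The labels do not state that replicate numbers pair the libraries. In deviations from group means, 3 of 12 same-numbered pairs correlated above 0.1 (r from -0.19 to 0.15). Differently numbered pairs were not set beside them, so this check cannot decide on a pairing. The replicate block changed no call of ACTB, GSN, TUBA4A or CNN1, with GSN at -1.35 for shunt against control (edgeR adjusted p = 0.0408). With RLE factors, TMM without mitochondrial genes, DESeq2 and no filter, these 4 genes also kept direction and call. Counts limit CNN1 most, with 15 in shunt 2.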
